A study of Mus musculus with 3 samples.

Results

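The genes described here are 32 genes of cholesterol and fatty acid synthesis, taken by name from the probes of a mouse expression array, out of 27731 genes in all. They comprise 7 enzymes from HMG-CoA synthesis to squalene, 10 enzymes from squalene to cholesterol, 5 genes of sterol regulation and transfer, and 10 genes of fatty acid synthesis and desaturation. RNA was compared on 3 Agilent arrays of 2 colours, each with treated RNA in Cy5 and untreated RNA of the same kind of culture in Cy3. The treatment was 800 µM pAsc, a phosphorylated and stable form of ascorbate (vitamin C), and the untreated cultures were in MEM. The first array held OP9-DL1 stromal cells treated for 24 h, a continuously cultured line that presents the Notch ligand Dll1. The labels give this line the cell type osteoblast and the strain B6-C3Hf1. The other arrays held T lineage cells from C57BL/6 bone marrow progenitors, grown on OP9-DL1 cells with Flt3L and IL7. These cultures lasted 14 days with pAsc in the last 24 h, or 17 days with pAsc in the last 72 h. Every T lineage culture, treated or not, therefore contained the stromal line, which was removed only by letting it adhere before RNA was taken. Each comparison was 1 array without a replicate or a dye swap, so no value below has a test, and a dye effect of a probe cannot be told apart from the treatment.

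Cells make cholesterol from acetyl-CoA through mevalonate, isoprenoid units, squalene and lanosterol, and the same acetyl-CoA feeds fatty acid synthesis. Most of these enzymes are transcribed under SREBP factors, which are held in the endoplasmic reticulum by SCAP and INSIG proteins and released when membrane sterol is low. Dividing cells, T lineage cells among them, need both pathways for new membrane, and the isoprenoid intermediates also serve protein prenylation.

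Promoters of 6 of the genes are shown because the results turn on them: Mvd and Tm7sf2 had the highest stromal ratios, Lss had probes that disagreed in size, Cyp51 differed most between the T lineage arrays, Hmgcs1 opens the pathway, and Srebf2 encodes its main regulator. Each run covers the 200 bases before the gene's start in RefSeq (GRCm38.p6), 5′ to 3′ on the gene's strand. Capitals mark CCAAT or its complement ATTGG, the NF-Y motif found near SREBP sites, and CACNCCAC, the core of the sterol regulatory element.
Hmgcs1, chr13:119690151-119690350, plus strand: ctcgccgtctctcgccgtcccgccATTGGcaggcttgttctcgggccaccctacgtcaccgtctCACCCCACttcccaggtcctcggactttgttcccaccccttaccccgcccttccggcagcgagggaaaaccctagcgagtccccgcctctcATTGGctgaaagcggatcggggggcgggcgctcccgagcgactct
Mvd, chr8:122443423-122443622, minus strand: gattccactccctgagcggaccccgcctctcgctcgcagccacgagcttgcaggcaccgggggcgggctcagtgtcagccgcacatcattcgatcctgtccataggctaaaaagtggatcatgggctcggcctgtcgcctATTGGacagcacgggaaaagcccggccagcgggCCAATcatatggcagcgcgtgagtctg
Lss, chr10:76531405-76531604, plus strand: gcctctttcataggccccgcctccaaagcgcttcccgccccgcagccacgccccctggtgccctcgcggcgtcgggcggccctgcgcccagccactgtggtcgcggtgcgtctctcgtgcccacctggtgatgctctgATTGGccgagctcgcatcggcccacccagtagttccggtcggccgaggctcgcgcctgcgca
Cyp51, chr5:4104698-4104897, minus strand: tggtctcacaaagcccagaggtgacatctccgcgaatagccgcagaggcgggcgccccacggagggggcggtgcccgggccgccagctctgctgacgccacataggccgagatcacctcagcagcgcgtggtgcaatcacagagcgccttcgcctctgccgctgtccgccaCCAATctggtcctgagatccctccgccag
Tm7sf2, chr19:6067851-6068050, minus strand: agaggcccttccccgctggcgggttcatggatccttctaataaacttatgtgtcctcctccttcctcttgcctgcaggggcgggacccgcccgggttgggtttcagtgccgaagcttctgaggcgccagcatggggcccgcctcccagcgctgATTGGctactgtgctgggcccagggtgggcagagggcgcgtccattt
Srebf2, chr15:82147069-82147268, plus strand: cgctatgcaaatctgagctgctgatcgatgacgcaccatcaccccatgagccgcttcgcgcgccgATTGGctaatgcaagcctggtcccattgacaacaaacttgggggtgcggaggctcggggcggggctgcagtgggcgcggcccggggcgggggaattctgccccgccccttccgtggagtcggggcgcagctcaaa
Hmgcs1 and Mvd each held 2 matches to CCAAT in these windows, and the others held 1 each. The Hmgcs1 window also held a match to CACNCCAC.

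Promoter windows of 300 bases, from 250 before to 50 after the start, were matched for 25 of the 32 genes. Sqle, Fdft1, Fdps, Scd1, Scd2, Fads1 and Stard4 had none matched. The letters were searched on both strands, and no motif contains another. CCAAT was present in 21 of the 25 genes (84.0%), against 41.1% of 27025 genes with such a window. The GC box GGGCGG was present in 20 (80.0%), against 38.2% of those genes. CACGTG, the E-box core, was present in 5 (20.0%), against 8.09%. CACNCCAC was present in 2, Hmgcs1 and Insig1 (8.0%), against 7.12%. A match describes letters and is not a bound site.

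All 32 genes were represented by a probe well above background in both channels of all 3 arrays, so no gene was lost to the filter on dim probes. A gene's value is that of its brightest probe. The members had 65 probes, of which 58 were well above background on the stromal array and 59 on each T lineage array. Ratios of repeated spots had a log2 SD of 0.07. Ratios from separate probes of the same gene spread more, with an SD of 0.18 in the stromal comparison, 0.14 at 24 h and 0.18 at 72 h in T lineage cells. Over the 17 members with several probes these SDs were 0.20, 0.10 and 0.15. These spreads are technical and hold no variation between cultures. Of 20 T lineage markers, 19 or 20 were well above background in the T lineage channels, and 5 untreated and 8 treated in the stromal line. All 24 stromal markers were well above background in the stromal line, and 22 to 24 of them in the T lineage channels. These 24 leave out Thy1, which is in both lists, is not well above background in the stromal line and had a level of 14.95 in untreated day 17 T lineage cells. For the osteoblast label, 6 of 7 osteoblast markers looked up after seeing the data were well above background in the stromal line, and Ibsp was not. So were 14346 of all 27731 genes and 9 of 12 adipocyte markers, so this count does not show whether the label holds. Untreated log2 levels were 15.33 for Spp1 and 11.53 for Runx2, but 7.57 for Sp7 and 8.625 for Bglap.

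In OP9-DL1 stromal cells, the synthesis genes sat above the bulk of the array after 24 h of pAsc. The log2 ratio of treated over untreated was above 0 for 30 of the 32 genes, against 53.4% of 14346 genes measured. The exceptions were Elovl6 at -0.28 and Scap at -0.01. The median ratio was 0.39, against 0.02 for all measured genes. No member reached a 2-fold difference, which 0.551% of measured genes did. With a lower bar of 0.5 on the log2 scale, chosen with the values known, 12 of the 32 lay at or above it, against 3.48% of measured genes, and none lay at -0.5 or below, against 4.88%. Over all probes of the members, 53 of 58 had a stromal ratio above 0. A median over the members depends on how the array is centred, and with each array centred on its measured genes in place of the intensity-dependent loess it was 0.63.

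**Figure D1:**
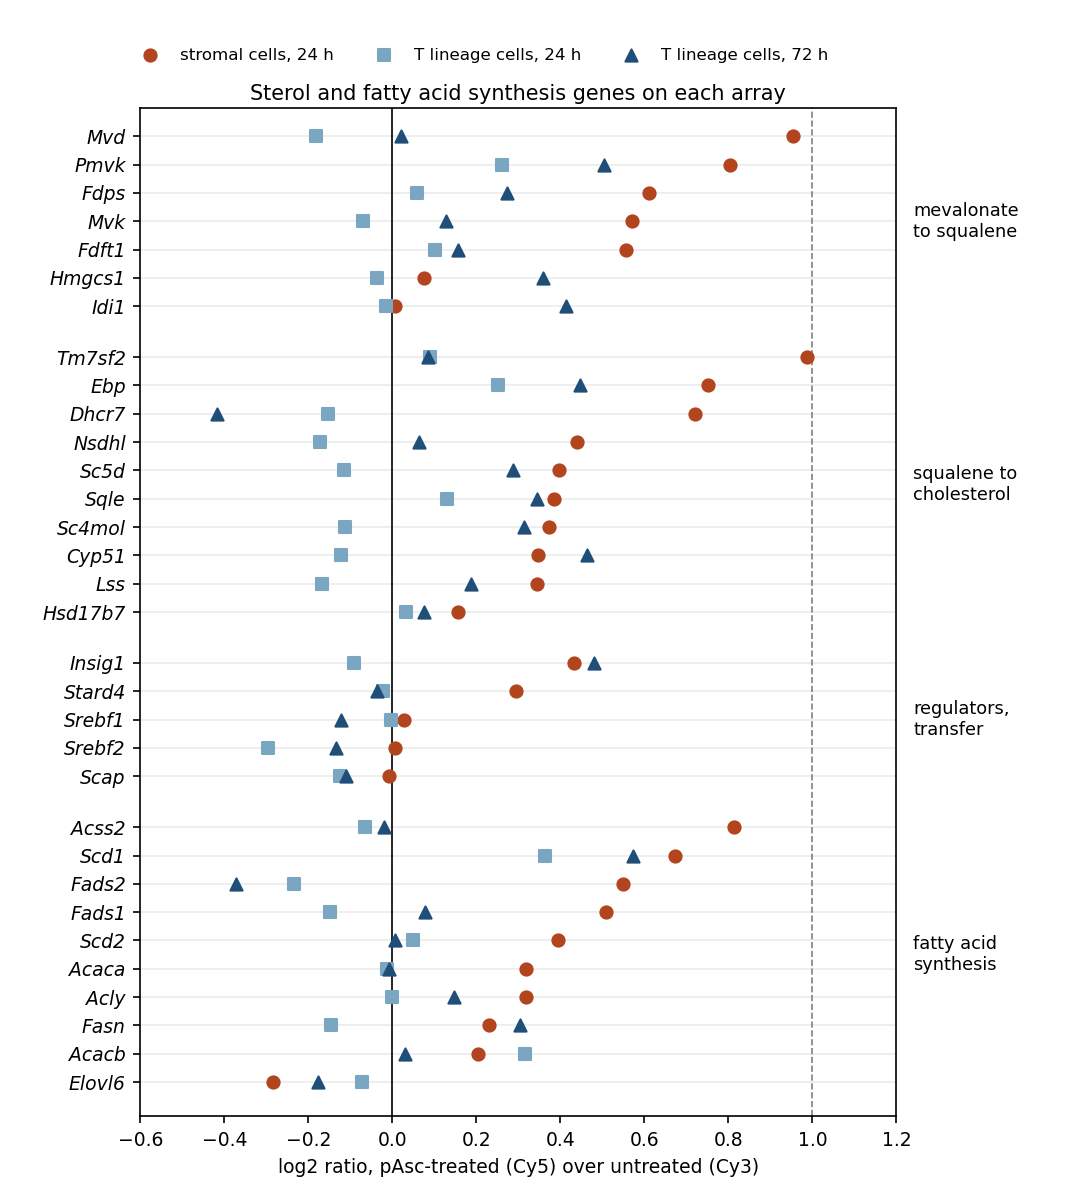
Log2 ratio of pAsc-treated over untreated signal for each of the 32 genes, grouped by pathway step, on the stromal array (circles), the 24 h T lineage array (squares) and the 72 h T lineage array (triangles), with 1 array per point and no error bar. The dashed line marks a 2-fold difference. The stromal circles lie mostly to the right of the squares, with Tm7sf2 at 0.99 and Mvd at 0.95 furthest right.

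All 7 enzymes from HMG-CoA synthesis to squalene had a stromal ratio above 0, with a median of 0.57, and 5 of them were at 0.5 or above. Mvd, which decarboxylates mevalonate diphosphate to the first isoprenoid unit, had a log2 level of 11.03 untreated and 11.99 treated in stromal cells, a ratio of 0.95 or 1.94-fold. In T lineage cells the Mvd level was 10.34 untreated and 10.16 treated at 24 h, and 10.21 and 10.23 at 72 h. The treated stromal channel was thus the highest of the 6, and the T lineage channels lay close together. The Mvd probe lies at chr8:124957750-124957809 in mm9, the build of the array files.

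Pmvk, which adds the second phosphate to mevalonate, had a level of 12.63 untreated and 13.44 treated in stromal cells, a ratio of 0.80. Its ratios in T lineage cells were 0.26 at 24 h and 0.50 at 72 h, so Pmvk was higher in the treated channel of every array. Both Pmvk probes shared these values within 0.05, with stromal ratios of 0.80 and 0.76. Mvk, the kinase one step earlier, had a stromal ratio of 0.57, from 10.79 to 11.36, and ratios of -0.07 and 0.13 in T lineage cells at 24 h and 72 h. Fdps, which builds farnesyl diphosphate for sterols and prenylation, had a stromal ratio of 0.61. Fdft1, which joins farnesyl units into squalene and commits them to sterols, had a stromal ratio of 0.56. Their T lineage ratios were smaller, 0.06 and 0.10 at 24 h and 0.27 and 0.16 at 72 h.

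Hmgcs1 and Idi1 had stromal ratios near 0, below those of the other 5 genes of this stretch. Hmgcs1, which makes HMG-CoA, had a stromal ratio of 0.07, and its other 2 probes gave -0.19 and -0.05. Idi1, which isomerises the isoprenoid unit, had a stromal ratio of 0.01, with a dimmer probe at 0.40. Both genes had their highest ratio in T lineage cells at 72 h, at 0.36 for Hmgcs1 and 0.41 for Idi1, after -0.04 and -0.02 at 24 h. In the 72 h array the Hmgcs1 level was 13.80 untreated and 14.15 treated, and that of Idi1 was 12.93 untreated and 13.35 treated. The array annotation places both Idi1 probes on chr2 in mm9, whereas RefSeq has the gene on another chromosome. Whether these probes report Idi1 was not tested.

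The 10 enzymes from squalene to cholesterol all had a stromal ratio above 0, with a median of 0.39 and 3 of them at 0.5 or above. Tm7sf2, a sterol reductase that acts after lanosterol demethylation, had a level of 11.34 untreated and 12.32 treated in stromal cells, a ratio of 0.99 or 1.98-fold, the highest among the 32. Its T lineage levels were 10.56 and 10.65 at 24 h and 9.94 and 10.02 at 72 h, so its ratio was 0.09 on each of these arrays. The Tm7sf2 probe lies at chr19:6062882-6062941 in mm9. The 2-fold limit falls within the processing differences for these genes: Tm7sf2 was at 1.02 with no offset in the background correction, and Mvd was at 1.05 in the authors' deposited log ratio.

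Ebp, an isomerase of the sterol ring, had a stromal ratio of 0.75, from 14.06 to 14.81, and ratios of 0.25 and 0.45 in T lineage cells. Dhcr7, which catalyses a last reduction to cholesterol, had a stromal level of 11.59 untreated and 12.31 treated, a ratio of 0.72. In T lineage cells its level was 12.83 untreated and 12.68 treated at 24 h, and 12.41 and 11.99 at 72 h. Dhcr7 was thus the sterol enzyme with the lowest ratio at 72 h, -0.42, and its second probe gave 0.58, -0.22 and -0.41 in the same order of arrays.

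The other enzymes of this branch had stromal ratios between 0.16 and 0.44. Sqle, the squalene epoxidase, had 0.39, from 13.58 to 13.97, and ratios of 0.13 and 0.34 in T lineage cells. Lss, which closes squalene epoxide into lanosterol, had a stromal ratio of 0.34 at its brightest probe, and its other probes gave 0.99 and 0.80. All 3 Lss probes were below 0 at 24 h in T lineage cells and between 0.19 and 0.24 at 72 h. Cyp51, the lanosterol demethylase, had 0.35 in stromal cells, -0.12 at 24 h and 0.46 at 72 h in T lineage cells. Its level in the latter was 10.36 untreated and 10.82 treated. Sc4mol and Nsdhl, which act together to remove methyl groups after lanosterol, had stromal ratios of 0.37 and 0.44. The 4 Nsdhl probes ranged from 0.03 to 0.75. Hsd17b7, the third enzyme of that complex, had 0.16, and the desaturase Sc5d had 0.40 at one probe and -0.03 at the other.

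Of the 5 genes of regulation and transfer, 3 lay near 0 in stromal cells, and the median of the 5 was 0.03. Srebf1 and Srebf2, the genes of the SREBP factors, had stromal ratios of 0.03 and 0.01, and Scap had -0.01. Srebf2 had a level of 14.33 in both stromal channels, 14.50 untreated and 14.20 treated at 24 h in T lineage cells, and 14.32 and 14.19 at 72 h. At this brightest probe the treated channel was the lower one on both T lineage arrays, with ratios of -0.30 and -0.13. The ratios of the 4 Srebf2 probes ran from 0.01 to 0.28 in stromal cells. In T lineage cells they ran from -0.30 to 0.01 at 24 h and from -0.34 to -0.06 at 72 h. Insig1, an SREBP target whose protein retains SCAP in the reticulum, had the highest stromal ratio of the 5, with values of 0.43, -0.09 and 0.48 in stromal cells and in T lineage cells at 24 h and 72 h. Its second probe gave 0.63, -0.07 and 0.13. Stard4, a sterol transfer protein, had a stromal ratio of 0.29 and T lineage ratios of -0.02 and -0.04. Its dimmer probes gave 0.43 and 0.46 in stromal cells, -0.08 and 0.04 at 24 h, and 0.33 and 0.25 at 72 h.

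**Figure D2:**
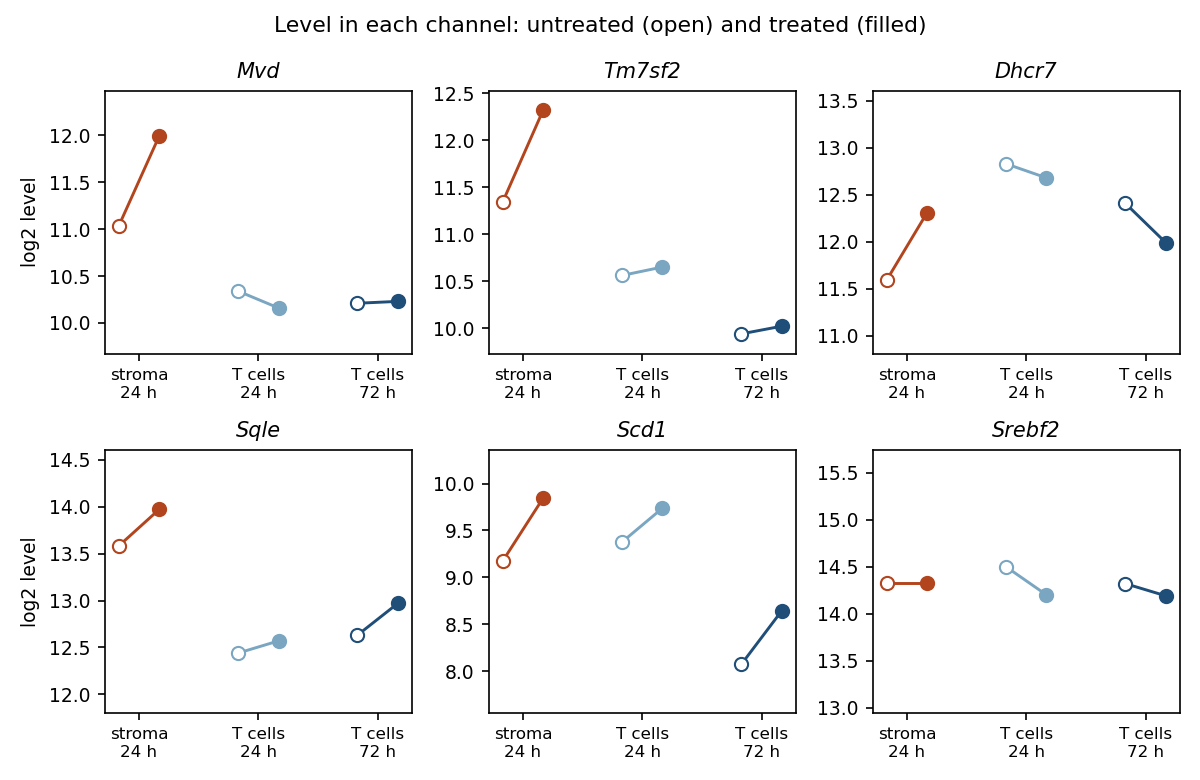
Log2 level in each of the 6 channels for 6 genes, with untreated cells as open and pAsc-treated cells as filled circles joined within an array, 1 channel per point. Each panel has its own vertical range, of equal width. For Mvd and Tm7sf2 the filled circle is above the open one in stroma and close to it in T lineage cells, and for Dhcr7 it is above in stroma (ratio 0.72) and below at 72 h (-0.42).

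Of the 10 fatty acid genes, 9 had a stromal ratio above 0, with a median of 0.36 and 4 at 0.5 or above. Acss2, which makes acetyl-CoA from acetate, led them with a level of 9.60 untreated and 10.41 treated, a ratio of 0.81 or 1.76-fold, against -0.07 and -0.02 in T lineage cells. A dimmer Acss2 probe gave 0.57 in stromal cells, and 0.14 and 0.22 in T lineage cells. Another, measured in T lineage cells only, gave -0.06 and 0.06. Scd1, a desaturase that makes monounsaturated fatty acids, had a stromal level of 9.17 untreated and 9.85 treated, a ratio of 0.67. In T lineage cells the Scd1 level was 9.38 untreated and 9.74 treated at 24 h, and 8.07 and 8.65 at 72 h. Scd1 had the highest ratio among the 32 on both T lineage arrays, 0.36 and 0.57. Fads1 and Fads2, the desaturases of polyunsaturated fatty acids, had stromal ratios of 0.51 and 0.55. In T lineage cells Fads1 had -0.15 and 0.08, and Fads2 had -0.23 and -0.37. Scd2, the other desaturase, had a stromal ratio of 0.39, and T lineage ratios of 0.05 and 0.01.

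Smaller stromal ratios were those of Acly, Acaca, Acacb and Fasn at their brightest probes. Acly, which makes acetyl-CoA from citrate, and Acaca, the cytosolic acetyl-CoA carboxylase, each had a stromal ratio of 0.32, and Acacb, the mitochondrial form, had 0.20. Dimmer measured Acaca probes gave 0.02 and 0.12. Fasn, the fatty acid synthase, had ratios of 0.23, -0.15 and 0.30 in stromal cells and T lineage cells at 24 h and 72 h. That Fasn probe is among the brightest, and the authors' deposited log ratio gave it 0.03, -0.36 and 0.14. This was the largest gap between both normalizations among the 32 genes. A dimmer Fasn probe had ratios of 0.55, -0.10 and 0.16 in the same order, so the size of the stromal value depended on the probe. Elovl6, which lengthens saturated fatty acids, was the single enzyme below 0 in stromal cells, from 10.20 to 9.92, and it was also below 0 on both T lineage arrays, at -0.07 and -0.18. Beside the fatty acid genes, 9 measured adipocyte markers, 4 above and 5 below 0, had a median stromal ratio of -0.02, and the summed log2 level of all 12 on the array was 16.02 untreated and 15.76 treated. Among them Fabp4, a fatty acid carrier, had -0.38, and Cebpa, an adipocyte transcription factor, had -0.42. Pnpla2, a triglyceride lipase, had 0.39, and the adipocyte hormone Adipoq had 0.29.

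In T lineage cells treated for 24 h, the synthesis genes lay close to or below the bulk of the array. No member was 2-fold apart, as were 0.324% of 16971 measured genes. None reached 0.5, against 4.71% of measured genes, and none lay at -0.5 or below, against 0.477%. Ratios were above 0 for 10 of the 32, against 54.7%, and the median was -0.05, against 0.02. With the array centred on its measured genes the count above 0 was 22 and the median 0.09, so the side of 0 on which the list lay depended on the normalization. By role, 3 of 7 genes up to squalene, 4 of 10 from squalene on, 0 of 5 regulators and 3 of 10 fatty acid genes were above 0. The highest were Scd1 at 0.36, Acacb at 0.32, Pmvk at 0.26 and Ebp at 0.25, and the lowest were Srebf2 at -0.30, Fads2 at -0.23 and Mvd at -0.18. The SD between probes of 1 gene on that array, 0.14, is of the order of many of these values.

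At 72 h of pAsc, 16 of the 17 sterol enzymes had a ratio above 0. The stromal ratio was the larger one for 14 of the 17, and the 72 h ratio for Hmgcs1, Idi1 and Cyp51. No member was 2-fold apart, as were 0.608% of 16282 genes. Pmvk at 0.50 and Scd1 at 0.57 were the 2 members at 0.5 or above, against 3.35% of measured genes, and none lay at -0.5 or below, against 2.95%. With the array centred on its measured genes, 10 members lay at 0.5 or above, against 7.69%. Ratios were above 0 for 23 of the 32, against 51% of measured genes, with a median of 0.11, against 0.01. All 7 genes up to squalene were above 0, with a median of 0.27, and so were 9 of 10 from squalene on, with a median of 0.24. The exception was Dhcr7. By their brightest probes the regulators had 1 of 5 above 0, Insig1, with a median of -0.11. The dimmer Stard4 probes were also above 0, at 0.33 and 0.25. The fatty acid genes had 6 of 10 above 0, with a median of 0.02.

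**Figure D3:**
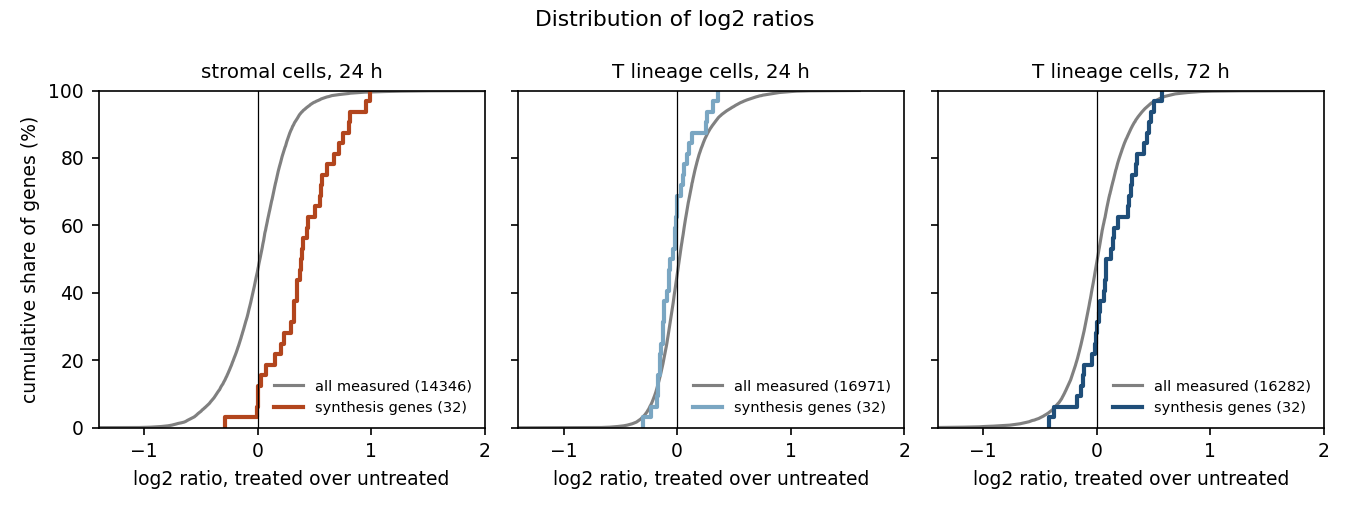
Cumulative share of genes by log2 ratio on each array, with all measured genes in grey and the 32 synthesis genes in colour. The coloured line lies to the right of the grey one on the stromal array (medians 0.39 and 0.02), slightly to its left at 24 h in T lineage cells (-0.05 and 0.02), and to its right at 72 h (0.11 and 0.01).

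Stromal markers were higher in the treated than in the untreated channel of the T lineage arrays. All 22 measured stromal markers had a ratio above 0 at 24 h, with a median of 0.81, and 20 of 23 at 72 h, with a median of 0.52. Their summed log2 level was 17.59 untreated and 18.46 treated at 24 h, and 18.78 and 19.45 at 72 h. With Thy1 counted in, the 72 h values were 18.88 and 19.52. The 12 adipocyte markers on the array had a summed level of 14.51 untreated and 15.17 treated at 24 h, and 15.52 and 15.66 at 72 h, and the T lineage markers 17.51 and 17.55, then 17.67 and 17.53, with Thy1 lacking a usable spot at 24 h. The 6 synthesis genes that were at least 2-fold higher in untreated stroma than in untreated day 14 cells had a median ratio of 0.12 at 24 h, against -0.07 for the other members. The 7 such genes by day 17 levels had a median of 0.13 at 72 h, against 0.07. The same untreated T lineage channel entered the choice of these genes and their ratios. A low reading there favours both, so the medians are not independent of the choice. In bulk RNA fewer cells of a type and less RNA per cell cannot be told apart, and the part of stromal RNA in the T lineage ratios was not tested.

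Between both T lineage arrays, which share no channel, 24 of the 32 genes had a higher ratio at 72 h than at 24 h, against 43.6% of the 13595 genes measured on all 3 arrays. No member's ratio was 1 log2 unit apart between them, as were those of 0.553% of 15741 genes. The median difference was 0.20, against -0.03 for all genes. The largest differences were those of Cyp51, 0.59, Insig1, 0.57, and Fasn, 0.45, followed by Idi1 and Sc4mol at 0.43 each. Acacb at -0.29 and Dhcr7 at -0.26 went furthest the other way. Treatment time and culture age differed together between these arrays and cannot be told apart.

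At the shared dose and time of 24 h, 30 of the 32 genes had a higher ratio in stromal than in T lineage cells, against 46.2% of genes measured on all 3 arrays. The median difference was 0.46, against -0.03. One gene, Mvd, was more than 1 log2 unit apart, at 1.14, against 1.75% of 13741 genes. By their brightest probes Tm7sf2 at 0.90, Acss2 at 0.88 and Dhcr7 at 0.87 came next. Elovl6 at -0.21 and Acacb at -0.11 had the lower ratio in stromal cells. The signs were opposite, above 0 in stroma and below 0 in T lineage cells, for 20 of the 32 genes, against 21.8% of all genes. With arrays centred on measured genes this count was 10, against 13.1%, and with centring on all probes it was 0, against 6.99%. Against the 72 h T lineage array, 26 of the 32 had the higher ratio in stroma, against 50.5%, with a median difference of 0.17, against 0.00. There Dhcr7, at 1.14, was the gene more than 1 log2 unit apart, against 1.1% of 13943 genes, and Mvd at 0.93 and Fads2 at 0.92 followed. Of the 6 with the lower stromal ratio, Idi1 at -0.41 and Hmgcs1 at -0.28 were furthest apart, and Cyp51, Elovl6, Fasn and Insig1 lay between -0.12 and -0.05.

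The question of the starting levels was addressed with the untreated channels. In untreated stroma against untreated day 14 T lineage cells, 9 of the 32 were at least 2-fold apart, against 40.3% of 13741 genes, 6 higher in stroma and 3 lower. Of all genes, 24.5% were that far higher in stroma and 15.8% that far lower. Acacb at 2.56, Mvk at 1.93, Fdft1 at 1.50, Fads1 at 1.19, Pmvk at 1.17 and Sqle at 1.14 were the higher ones on the log2 scale. Idi1 at -1.94, Elovl6 at -1.63 and Dhcr7 at -1.24 were the lower ones. The median of the members was 0.16, against 0.26 for all genes. With each channel centred on its measured genes the split was 3 higher and 6 lower.

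Against untreated day 17 cells, which were set against the same untreated stromal channel, 9 of the 32 were again at least 2-fold apart, against 26% of 13943 genes, 7 higher in stroma and 2 lower. The shares of all genes were 15.6% higher and 10.4% lower. With channels centred on measured genes the split was 4 higher and 2 lower, against 23.4% of genes 2-fold apart. Acacb at 1.71, Mvk at 1.54 and Tm7sf2 at 1.40 were furthest above, followed by Scd1, and Elovl6 at -1.65 and Idi1 at -1.63 furthest below. Pmvk, Insig1 and Fads1 lay at the limit with 1.00 each. At their brightest probes Hmgcs1, Srebf1, Srebf2, Scap and Fasn differed by less than 0.6 in both comparisons. Some dimmer probes differed more. One of Hmgcs1 had 7.12 in stroma and 9.08 on day 14, and one of Srebf2 had 10.84 and 11.66. The dimmer Fasn probe had 9.11 in stroma and 8.31 on day 17. Idi1 and Elovl6 therefore had their highest levels in T lineage cells of either day, and Acacb and Mvk in stroma.

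**Figure D4:**
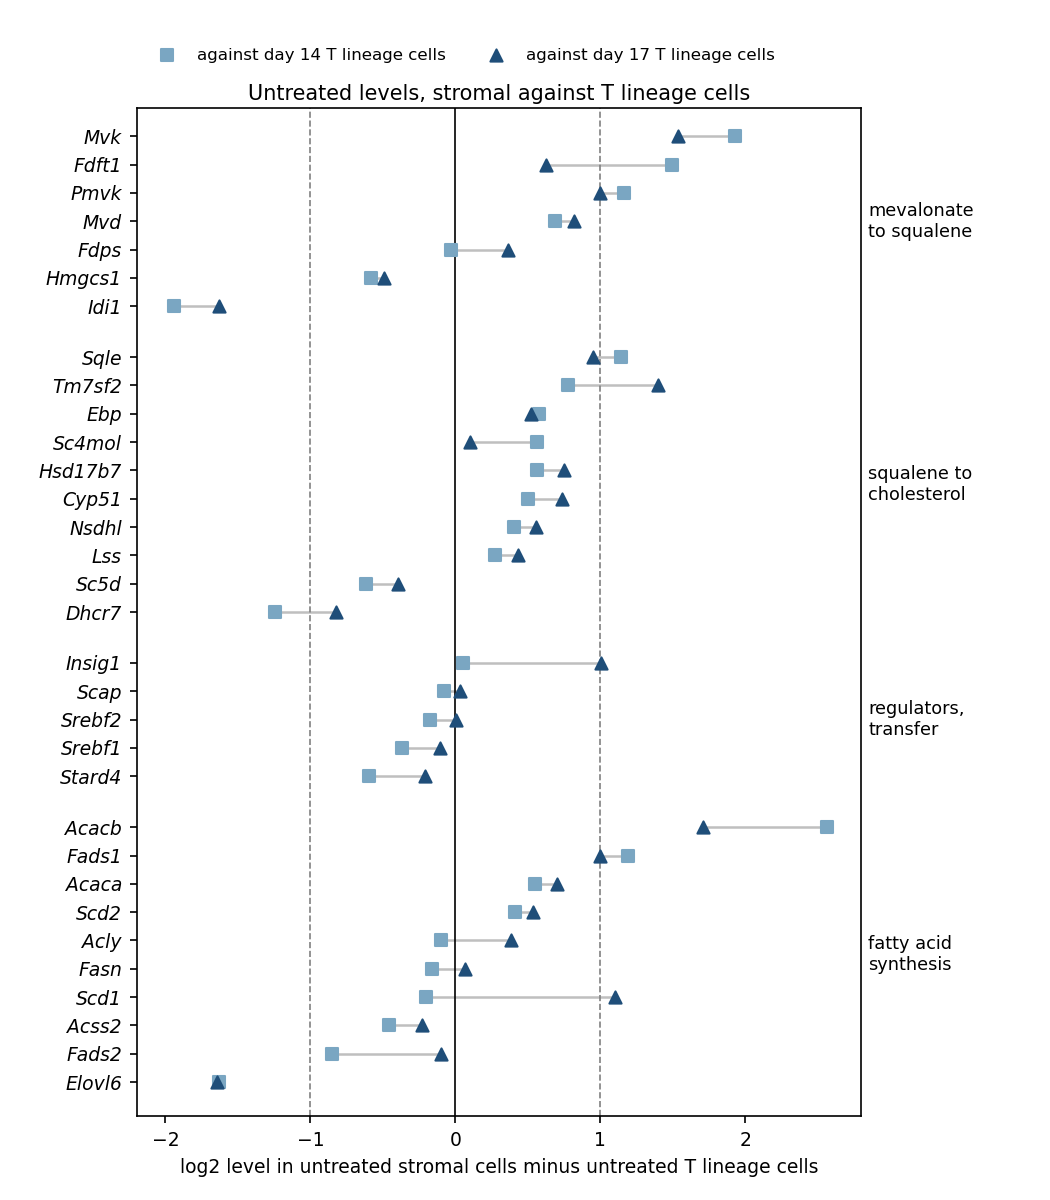
Log2 level in untreated stromal cells minus that in untreated T lineage cells for each of the 32 genes, against day 14 (squares) and day 17 (triangles) cultures, with 1 channel on each side and no error bar. Dashed lines mark 2-fold. Acacb and Mvk lie beyond the line on the right and Idi1 and Elovl6 beyond it on the left against both days, while Dhcr7 passes it against day 14 alone (-1.24 and -0.82).

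Within untreated T lineage cultures, 23 of the 32 genes had a lower level on day 17 than on day 14, against 49.8% of all genes, with a median difference of -0.17, against 0.00 for all genes. One gene, Scd1, was at least 2-fold apart, at -1.30, against 11.4% of 15741 genes. Insig1 at -0.95, Fads2 at -0.75 and Tm7sf2 at -0.62 were the next lowest, and Fdft1 at 0.87 and Acacb at 0.85 the highest. Both highest genes were among those brighter in stroma than on day 14. Both comparisons subtract the same day 14 channel, so a low reading there raises a gene in each. The summed stromal marker level of the untreated cultures was 17.59 on day 14 and 18.78 on day 17. The part of stromal RNA in the differences between days was not tested. With plain background subtraction Insig1 and Acacb also passed 2-fold, at -1.14 and 1.23, as did 18.6% of genes. A dimmer Fdps probe had a level of 10.03 on day 14 and 7.78 on day 17, whereas the brighter one had 13.32 and 12.92, so the probes of this gene disagreed in size. Those of Insig1 did too, with 7.525 and 7.343 at the dimmer probe and 9.355 and 8.404 at the brighter one.

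Other genes tied to the same lipids were described from lists taken outside the 32. Of 14 further SREBP targets and SREBP proteases measured in stromal cells, 11 had a ratio above 0 with a median of 0.20 and none was 2-fold apart. Pcyt2, of phosphatidylethanolamine synthesis, had 0.68 and Tmem97, a sterol-responsive membrane protein, had 0.65. The median was 0.01 over 14 genes at 24 h and 0.18 over 15 at 72 h in T lineage cells, where Me1, the malic enzyme that supplies NADPH, had 0.96 and 0.48. Untreated Me1 was 3.92 log2 units higher in stroma than in day 14 cells and 2.15 higher than in day 17 cells. Its stromal ratio was 0.04, and the part of stromal RNA in its T lineage ratios was not tested. Of 9 genes of cholesterol efflux and storage, 4 were above 0 in stromal cells, with a median of -0.05. Apoe, a lipid carrier, had 0.88 and Nr1h3, which encodes the sterol receptor LXRα, had 0.87. At 24 h and 72 h in T lineage cells the medians of these 9 were 0.05 and -0.19, and Abcg1, a sterol exporter, had -0.42 and -0.52. Of 11 fatty acid oxidation genes, 5 were above 0 in stromal cells, with a median of -0.01. In T lineage cells 6 were above 0 at each time, with medians of 0.11 at 24 h and 0.08 at 72 h.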

How the data were processed

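RNA was measured on 3 Agilent mouse arrays of 2 colours, 1 for each comparison. The deposited intensity values are each spot's mean signal and median local background. Per the file headers the authors used Agilent Feature Extraction, version 10.5.1.1, and these columns are not normalized. The deposited log10 ratio of Cy5 over Cy3 was background-subtracted and dye-normalized, per the file headers, and served as an alternative after conversion to log2. Probe positions in the files are in mm9.

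From the intensities, limma 3.58.1 in R 4.3.3 corrected the background (normexp, offset 50) and normalized each array by loess (span 0.3), with weight 0 for controls and outlier spots. Levels per channel were made comparable between arrays with Aquantile. Spots of a probe were averaged, 43379 spots giving 41174 probes on each array. A gene took its probe of highest mean brightness over the arrays, and counted as measured where a share of 0.5 or more of the spots was well above background in each channel. No spot was saturated, a count of 0. Called or apart means at least 2-fold. Probes were named by RefSeq accession (24896), symbol (6292), synonym (1640) or list name (242), and 8104 kept the name in the files.

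There was 1 array per comparison, so no test was run, and the number of arrays limits the precision. The normalization was tested on simulated data. The genes named are the 32 members and, of each other list, at most the 2 highest and 2 lowest measured genes of an array. Thy1, Cfd and Retn, the osteoblast markers and Adipoq and Lpl on other arrays were named outside this rule, after their values were seen. Members and lists were chosen with earlier results of these data known. Alternatives were no offset, plain background subtraction, the deposited ratio, centring on the median of measured genes or of all probes in place of loess, the median over a gene's probes, and no filter on dim probes. The bar of 0.5 on the log2 scale, the comparison of stromal with 72 h T lineage ratios and that of stroma with day 17 cells were added after seeing the data. Pandas 2.3.3, numpy 2.4.6 and matplotlib 3.10.9 in Python 3.11.15 were used for the tables and figures.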

Additional observations from a re-analysis of the deposited data

Results flagged for a closer look

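Mvd had a stromal ratio 1.14 log2 units above its ratio in T lineage cells at 24 h, with opposite signs on the single arrays (0.95 and -0.18). Dhcr7 had a stromal ratio 1.14 log2 units above its ratio in T lineage cells at 72 h, again with opposite signs (0.72 and -0.42), and its second probe gave 0.58 and -0.41. With 1 array each, neither difference was tested.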

How the results depend on the processing

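The direction of the stromal median held under all 7 alternatives, with medians from 0.38 to 1.28 and 29 to 32 of the 32 genes above 0, and that of the 72 h median too, from 0.10 to 0.79. The 24 h median in T lineage cells ranged from -0.08 to 0.51. Centring on all probes moved the median of all measured genes to 0.65 in stromal and 0.42 and 0.56 in T lineage cells (24 h, 72 h) and the members' medians to 1.28, 0.51 and 0.79. With it, 27, 0 and 12 members were 2-fold apart, as were 20.2%, 4.61% and 10.2% of genes, and 31, 17 and 29 were at 0.5 or above, as were 60.3%, 39.2% and 55.2% of genes. Centring on measured genes gave a stromal median of 0.63 with 6 members 2-fold apart, against 2.05% of genes, and 21, 1 and 10 members at 0.5 or above, against 10.53%, 6.07% and 7.69% of genes. No offset and plain subtraction put Tm7sf2 past 2-fold in stroma, 1 member each, and the deposited ratio put 1, Mvd, with Tm7sf2 just under the limit at 1.00 after rounding. The shares of genes 2-fold apart with these settings were 0.976%, 1.69% and 1.71%. The stromal ratio was 1 log2 unit or more above that of 24 h T lineage cells for 2 members with plain subtraction, the deposited ratio and centring on measured genes, and for 8 with centring on all probes. In that order, 4.13%, 4.17%, 1.8% and 1.51% of genes were as far apart in either direction. Against 72 h cells the stromal ratio was that far above for 3 and 4 members with centring on measured genes and on all probes. In either direction, 1.89% and 1.43% of genes were as far apart. Between untreated days, 3 members were 2-fold apart with no offset, plain subtraction or the deposited signal, against 16.8%, 18.6% and 19.9% of genes. With centring on measured genes or the median over probes 2 were, against 11.4% and 10.3%. Over single genes, 0 to 125 values per alternative moved by more than the spread between probes, the most with centring on all probes, and no called value changed sign. The cause was not tested. No replicate could be left out, since each comparison is 1 array. No paired analysis was possible because each group is 1 array. Centring on all probes gave no channel levels.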

Other observations

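Macrophage and myeloid markers, which could mark another cell type in either culture, had a summed log2 level of 11.67 untreated and 11.66 treated in stromal cells, 10.82 and 10.86 at 24 h and 10.56 and 10.44 at 72 h in T lineage cells. At 72 h, 4 of the 8 measured were above 0 and 4 below, with Lyz2 at -1.27 and Lyz1 at -0.50, lysozyme genes, and Emr1, a macrophage receptor, at 0.87. Of the adipocyte markers, Cfd and Retn were not well above background on any array. The measured adipocyte markers were above 0 for 8 of 10 at 24 h and 6 of 9 at 72 h in T lineage cells. Adipoq, an adipocyte hormone, had ratios of 0.29, 0.72 and 0.65 in stromal cells and in T lineage cells at 24 h and 72 h, and Lpl, a lipoprotein lipase, had -0.07, 0.93 and 0.44. Untreated Adipoq was dim at 24 h in T lineage cells, with a log2 level of 6.46, against 6.02 for Cfd. Its deposited log2 ratio there was 1.79. Agpat2 at -0.17 and Pnpla2 at -0.16 were the lowest at 24 h, and Lipe at -0.30 and Cebpa at -0.28 at 72 h.

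Among fatty acid oxidation genes of stromal cells, Acadm, a medium-chain dehydrogenase, had -0.46 and Pdk4, a kinase that restrains pyruvate oxidation, had -0.42, while Etfb, an electron carrier, had 0.40. Pdk4 had 0.44 and 0.20 in T lineage cells at 24 h and 72 h.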
